A study of Homo sapiens with 6 samples.

Results

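The transcripts described here are 7 complement genes, C1R, C1RL, C4A, C4B, CFB, CFD and CFI, in U87MG cells, an established human glioblastoma line. They were taken by gene name, as the classical and alternative pathway complement genes that have a row in the deposited table, and they are 7 of its 1630 genes. Total RNA was sequenced from 3 libraries of U87MG cells with a hairpin against CREPT (shCREPT, labelled as a CREPT knockdown) and from 3 libraries of U87MG cells with a control hairpin (shControl). CREPT, the product of RPRD1B, is a protein known to bind the tail of RNA polymerase II. The labels do not give the number of hairpins, the time after their delivery, whether the cells were a clone, or whether each library had a culture of its own, so a p-value here covers library-to-library spread that may be technical.

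Complement is a cascade of plasma and tissue proteases that marks surfaces for uptake or lysis. In the classical pathway the proteases of the C1 complex cleave C4, and C4b then joins a C2 fragment to form an enzyme that cleaves C3. In the alternative pathway factor D cleaves factor B bound to C3b, which forms a second C3-cleaving enzyme, and factor I stops both by degrading C3b and C4b with the help of cofactors. The liver makes most of these proteins, and astrocytes and glioma cells are also known to make several of them.

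The table holds genes that the authors had already marked as different between the groups. All 1630 carry the mark, 657 up and 973 down (59.7%), with an absolute log2 fold change of at least 1.0009 in the authors' deposited table. A complement gene with a row was therefore bound to differ between shCREPT and shControl, and the tests given for the 7 genes describe sizes and spreads and support nothing about the choice. RPRD1B is not among the listed genes, all of which carry the mark, so it was not listed as different between the groups. Its level was not analysed here and the knockdown itself was not checked. The listed values of a library summed to between 31893.69 and 33330.8, and the number of reads behind them is unknown. The values are normalized expression of a kind that the headers do not name. They are not known to be scaled by transcript length, so levels are compared between groups for 1 gene and not between genes.

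All 7 complement transcripts were lower in shCREPT than in shControl. By the ratio of group means the factor B transcript CFB was 5.18-fold lower, C1RL 3.96-fold and the factor I transcript CFI 3.44-fold lower, and C4A, C4B, C1R and CFD were 3.28-, 3.25-, 2.85- and 2.79-fold lower. The order depends on the measure and on single libraries. In the authors' deposited table C4A is 6.25-fold lower and CFB 5.21-fold, and without the first shCREPT library the means put C1RL 5.62-fold lower and CFB 5.21-fold. In limma on log2(value + 1), with Benjamini-Hochberg adjustment over 1184 tested genes, all 7 passed an adjusted p of 0.05 and all 7 were lower. C1R met the filter on low values through shControl alone, so it had to differ to be tested. C1RL reached the minimum in 1 shCREPT library and 3 shControl libraries, so it too was kept through shControl. The count of 7 supports nothing. Of all tested genes in the table, 97.9% passed in either direction and 57.3% passed as lower in shCREPT. No shCREPT value of any member reached the lowest shControl value of that gene, which 56.6% of tested genes also showed in this direction. The members' median log2 change was −1.25, beside −0.76 over all tested genes. The latter mixes falls with rises, as 689 of the 1184 tested genes had a negative change. It therefore does not set the members against other falling genes. By size of fall the members ranked from 33rd (CFB) to 596th (C1R) among those 689.

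**Figure D1:**
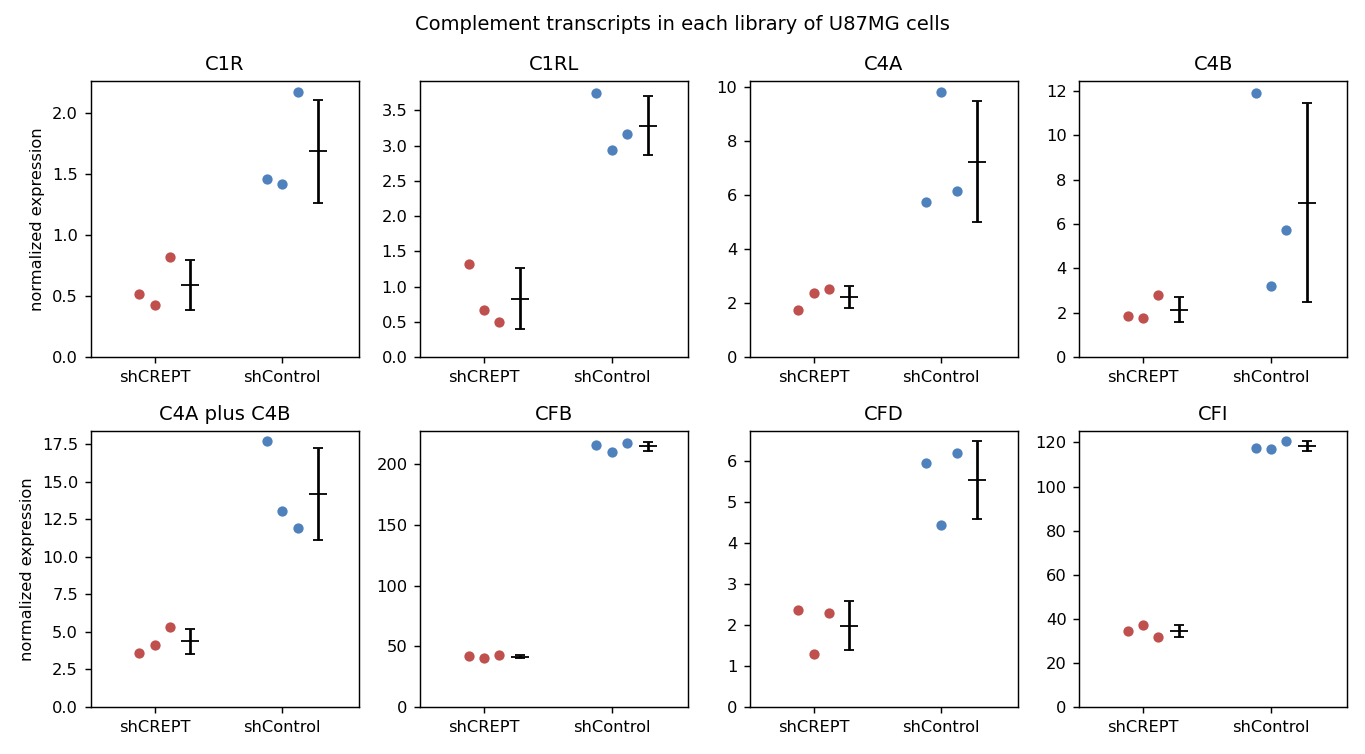
Normalized expression (vertical axes, linear from 0) of the 7 complement transcripts and of C4A plus C4B in the 3 shCREPT (red) and 3 shControl (blue) libraries; each point is a library and the black marks are the mean and SD. In each panel the shCREPT points lie below the shControl points, with the narrowest spreads for CFB and CFI and the widest for C4B in shControl.

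The alternative pathway is represented by CFB and CFD. CFB encodes factor B, the zymogen that carries the protease of the alternative C3 convertase, and lies on chromosome 6 from 31945650 to 31952084 (GRCh38, plus strand). CFB had values of 41.96, 39.98 and 42.51 in the shCREPT libraries, against 216.21, 210.39 and 217.84 in the shControl libraries. The libraries of each group lay within a few units of one another, and the groups were far apart. The CFB log2 change was −2.35 ± 0.07 (SE; limma adjusted p = 2.29e-06), the 33rd largest fall among the 689 tested genes with a negative change. CFD, the gene of factor D, the protease that cuts factor B, lies on chromosome 19 from 859643 to 863630 (plus strand). CFD was at 2.35, 1.30 and 2.29 in the shCREPT libraries, against 5.94, 4.44 and 6.19 in the shControl libraries. The second library of each group was the lowest of its group, and the groups did not overlap. CFD averaged 1.98 ± 0.590 in shCREPT and 5.52 ± 0.947 in shControl (SD, n = 3 each), and its log2 change was −1.14 ± 0.18 (SE; limma adjusted p = 0.000895). That call was lost under median-of-ratios rescaling (log2 change −0.47, limma adjusted p = 0.0597).

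CFI encodes factor I, the serine protease that inactivates C3b and C4b, and lies on chromosome 4 from 109740694 to 109802179 (minus strand). CFI stood at 34.42, 37.22 and 31.58 in the shCREPT libraries, against 117.28, 117.06 and 120.85 in the shControl libraries. The shControl values were nearly the same, and the shCREPT values varied more in relative terms. The CFI log2 change was −1.76 ± 0.09 (SE; limma adjusted p = 8.8e-06), the 80th largest of the falls. CFI shares 32.0% of its exonic bases with an overlapping gene on the same strand, ENSG00000285330, which has a row of its own. That row is listed at 0 in each shCREPT library and at 0.90, 0.56 and 0.44 in the shControl libraries.

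CFB and CFI both fell, while factor B activates and factor I restrains the C3 convertases, and their values were also set against each other within each library, where the scaling between libraries cancels. This ratio was chosen after the values were seen. CFB over CFI was 1.22, 1.07 and 1.35 in the shCREPT libraries, against 1.84, 1.80 and 1.80 in the shControl libraries. The ratio was lower in every shCREPT library than in any shControl library. On the log2 scale the ratio averaged 0.273 ± 0.163 in shCREPT and 0.859 ± 0.0201 in shControl (SD, n = 3 each), a difference of −0.59. With 3 libraries against 3 an exact two-sided permutation test cannot go below 0.1, so a larger fall of CFB than of CFI was not shown by a test.

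The gene of the classical pathway protease C1R and its relative C1RL are neighbours on chromosome 12, minus strand. C1R, from 7080199 to 7092607, encodes the protease that activates C1s within the C1 complex, and C1RL, from 7089587 to 7109273, encodes a related secreted serine protease. C1R was at 0.52, 0.43 and 0.82 in the shCREPT libraries, against 1.46, 1.42 and 2.17 in the shControl libraries. The third library was the highest of each group, and all values were low. The C1R log2 change was −0.75 ± 0.15 (SE; limma adjusted p = 0.00221), on a scale that shrinks low genes. No shCREPT library reached the filter minimum of 1 for C1R, against all 3 shControl libraries. Under median-of-ratios rescaling C1R kept its sign and lost its call (log2 change −0.31, limma adjusted p = 0.0957).

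C1RL was at 1.32, 0.67 and 0.50 in the shCREPT libraries, against 3.75, 2.94 and 3.17 in the shControl libraries. The first library was the highest of each group, and the shCREPT libraries differed among themselves by more than the shControl libraries in relative terms. The C1RL log2 change was −1.25 ± 0.18 (SE; limma adjusted p = 0.000456). Only the first shCREPT library reached the filter minimum of 1 for C1RL, against all 3 shControl libraries. The annotated spans of C1R and C1RL overlap by 3021 bases, and 672 exonic bases are shared, 11.4% of those of C1R and 13.4% of those of C1RL. The sources used here do not say how reads there were assigned, so the division between both genes is uncertain. C1R over C1RL was 0.394, 0.642 and 1.64 in the shCREPT libraries, against 0.389, 0.483 and 0.684 in the shControl libraries. The groups overlapped, and the high value came from the third shCREPT library. The mean log2 ratio differed by 0.56 between shCREPT and shControl (exact two-sided permutation p = 0.6, with 0.1 the smallest possible), and by −0.01 without that library, so unequal falls of C1R and C1RL were not shown.

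C4A and C4B encode the isotypes of complement C4, the substrate of the C1 complex. They are near-identical copies in the class III region of the major histocompatibility complex on chromosome 6, plus strand, C4A from 31982024 to 32002681 and C4B from 32014795 to 32035418. Their longest coding transcripts in GENCODE v29 were 99.76% identical, with 13 differing bases over 5427 aligned. The alignment also had 33 gap positions, which that identity leaves out. Of all 100-base windows in the coding transcripts of C4A, 88.1% occur letter for letter in those of C4B. The densest run of differences, at the site known to set the isotypes apart, holds 5 of the 13. It is shown because it is among the few places where a read can tell the genes apart. The stretches below run 5′ to 3′ on the sense strand, from base 3418 to 3484 of the C4A transcript and from base 3385 to 3451 of the C4B transcript, with the differing bases in capitals.
C4A: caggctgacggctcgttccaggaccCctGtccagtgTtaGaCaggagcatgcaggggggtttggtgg
C4B: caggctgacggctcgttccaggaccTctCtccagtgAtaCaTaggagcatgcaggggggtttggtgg

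C4A was at 1.75, 2.37 and 2.52 in the shCREPT libraries, against 5.75, 9.83 and 6.17 in the shControl libraries. C4B was at 1.86, 1.78 and 2.78 in the shCREPT libraries, against 11.92, 3.21 and 5.72 in the shControl libraries. Among the shControl libraries the order was turned round: the first had the lowest C4A and the highest C4B, and the second had the highest C4A and the lowest C4B. The lowest shControl value of C4B, 3.21, stood close to the highest shCREPT value, 2.78. The C4A log2 change was −1.34 ± 0.20 and that of C4B −1.20 ± 0.39 (SE; limma adjusted p = 0.000645 and 0.021). The C4B call was lost under median-of-ratios rescaling (limma adjusted p = 0.239), under quantile normalization (limma adjusted p = 0.0544), without the first shCREPT library (limma adjusted p = 0.0589) and without the second (limma adjusted p = 0.0643). Over all alternatives the C4B limma adjusted p ran from 0.00415 to 0.239. The size of the C4B fall rested on the first shControl library: without it the C4B log2 change was −0.77 and the means put C4B 2.09-fold lower, against 3.61-fold for C4A.

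Because the copies share most of their sequence, their values were also summed. The sources used here do not say how reads that match both copies were counted, so the sum may leave such reads out. C4A plus C4B came to 3.61, 4.15 and 5.30 in the shCREPT libraries, against 17.67, 13.04 and 11.89 in the shControl libraries. The lowest shControl sum was more than the highest shCREPT sum by a wide margin, unlike for C4B alone. The sum averaged 4.35 ± 0.863 in shCREPT and 14.2 ± 3.06 in shControl (SD, n = 3 each), a level 3.26-fold lower, and its log2 change was −1.50 ± 0.18 (SE; limma adjusted p = 0.000198). The coefficient of variation among shControl libraries was 21.6% for the sum, 31.0% for C4A and 64.5% for C4B. C4A made up 48.5%, 57.1% and 47.6% of the sum in the shCREPT libraries, against 32.5%, 75.4% and 51.9% in the shControl libraries. The shCREPT shares lay inside the shControl range, and the mean share differed by −2.23 percentage points (exact two-sided permutation p = 0.8, with 0.1 the smallest possible). Without the second shControl library the difference was 8.83 points, so no shift between C4A and C4B was shown.

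**Figure D2:**
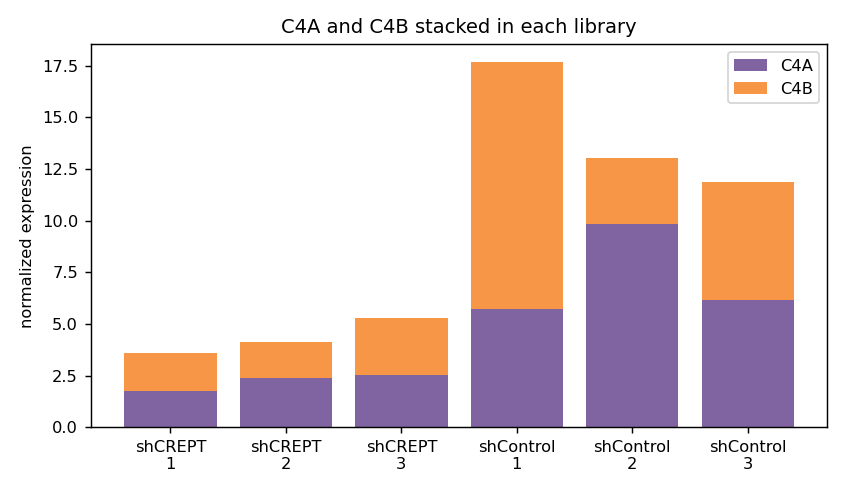
Normalized expression of C4A (purple) and C4B (orange) stacked in each library, 3 shCREPT on the left and 3 shControl on the right; 1 bar is 1 library. The stacked height runs from 3.61 to 5.30 in shCREPT and from 11.89 to 17.67 in shControl, while the split within a bar varies most among the shControl libraries.

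The authors' deposited table gives a fold change for each gene that need not follow from the listed values. For CFB, CFI and CFD the authors' deposited table has log2 fold changes of −2.38, −1.74 and −1.47, beside log2 ratios of the mean values of −2.37, −1.78 and −1.48. For C4A it has −2.64, beside −1.71 from the mean values, and for C4B it has −1.60, beside −1.70. In the authors' deposited table C4A thus has a larger fall than C4B. The means of the listed values give like ratios for both with all libraries, but not without the first shControl library, as given above. For C1RL and C1R the authors' deposited table has −2.26 and −1.70, beside −1.99 and −1.51 from the mean values.

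**Figure D3:**
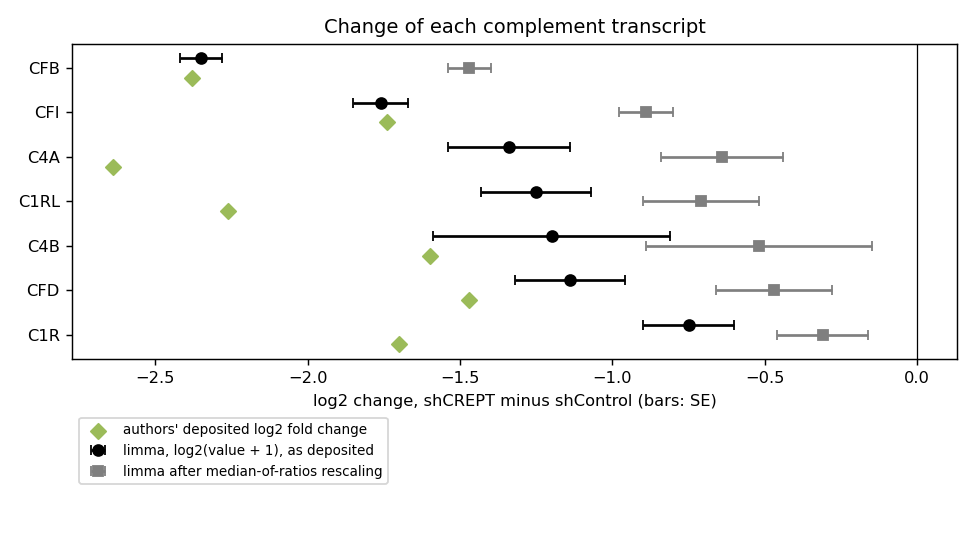
Log2 change (horizontal axis, shCREPT minus shControl) of each complement transcript from limma on the values as deposited (black circles), from limma after median-of-ratios rescaling (grey squares), each with its SE, and from the authors' deposited table (green diamonds). All points lie below 0; CFB stays the largest fall in both limma fits, at −2.35 and −1.47, and C4A and C1RL show the widest gaps between the first limma fit and the deposited fold changes, together with C1R.

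The size of each fall depends on how libraries are scaled. Median-of-ratios rescaling over the tested genes moved the median log2 change of all tested genes to −0.12, against −0.76 without it. It moved the members' median to −0.64, against −1.25 without it. On log2(value + 1) the shift was not alike for all genes. CFB moved from −2.35 to −1.47, and the low member C1R moved less, from −0.75 to −0.31. The distance between the medians was not tested and is not read as a result. After rescaling CFB (−1.47), CFI (−0.89), C1RL (−0.71) and C4A (−0.64) still passed as lower, 4 of the 7 members, where 31.3% of tested genes passed as lower, and C1R, C4B and CFD did not pass. Median-of-ratios rescaling takes the middle gene as unchanged, whereas every listed gene was marked as different and 59.7% were marked down. The size of its shift, and the calls lost with it, therefore depend on how the table was selected. Which scaling comes closer to the cells cannot be settled from a table without unchanged genes.

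**Figure D4:**
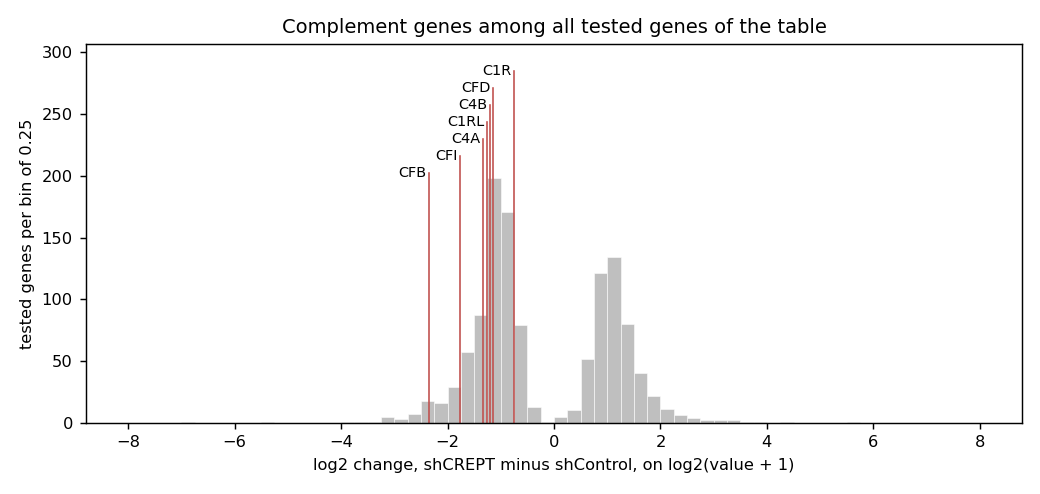
Number of tested genes (vertical axis) by log2 change on log2(value + 1), shCREPT minus shControl, in bins of 0.25, with a red line at each complement gene. The table has a gap around 0 because its genes were selected for a difference; C1R, CFD, C4B, C1RL and C4A lie within the main group of falls, and CFI and CFB lie in its lower tail.

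The remaining genes of the pathway were taken from 6 lists of 59 complement genes in all, of which 49 have no row. No row does not tell whether a gene is expressed, only that it is not among the listed genes. Of the 10 with a row, 9 could be tested, and 7 passed as lower, all of them the members described here, and 1 passed as higher. Over all tested genes 57.3% passed as lower. Only genes already marked as different have a row, so the count supports nothing. Neither C3, the protein on which the pathways converge, nor C1S, the protease partner of C1R, nor C2, the neighbour of CFB, has a row. None of 7 terminal components, 1 of 5 membrane regulators and 2 of 11 receptors and binding proteins have a row.

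The gene that passed as higher was C1QBP, which encodes a mainly mitochondrial protein that also binds the globular heads of C1q. C1QBP was at 332.78, 349.22 and 345.70 in the shCREPT libraries, against 139.55, 138.11 and 137.99 in the shControl libraries. It was 2.47-fold higher in shCREPT with no overlap (log2 change 1.30 ± 0.07, SE; limma adjusted p = 1.13e-05). SUSD4, a membrane protein that inhibits complement, had 2.42, 1.22 and 1.38 in the shCREPT libraries, against 2.48, 1.80 and 2.44 in the shControl libraries. The groups overlapped, and SUSD4 did not pass (log2 change −0.30 ± 0.19, SE; limma adjusted p = 0.159), although the authors' deposited table marks it down with a log2 fold change of −1.12. Its change was 0.28 under median-of-ratios rescaling, and without the first shCREPT library it passed as lower (log2 change −0.49, limma adjusted p = 0.0135). ITGB2, the integrin beta chain of complement receptors 3 and 4, was too low to be tested, at 0.48, 0.42 and 0.33 in the shCREPT libraries, against 0.92, 0.76 and 0.66 in the shControl libraries.

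Complement genes are known to respond to interferons, interleukin 6 and NF-kappaB, and of 32 genes listed for these signals 31 have no row. The remaining gene is IFNB1, which encodes interferon beta. IFNB1 was at 68.95, 69.87 and 74.28 in the shCREPT libraries, against 189.80, 192.11 and 173.94 in the shControl libraries. IFNB1 was 2.61-fold lower with no overlap (log2 change −1.37 ± 0.08, SE; limma adjusted p = 1.39e-05). Acute phase proteins share inducers with complement, and of 18 genes listed as such 3 have a row, all marked down by the authors. Whether each of the 18 acts as an acute phase gene in human cells was not tested. Of all listed genes 59.7% are marked down. SERPINA3, the gene of antichymotrypsin, was at 0.59, 0.90 and 0.64 in the shCREPT libraries, against 8.63, 7.56 and 7.29 in the shControl libraries. SERPINA3 was 11.0-fold lower with no overlap (log2 change −2.37 ± 0.11, SE; limma adjusted p = 7.25e-06). Like C1R, SERPINA3 met the filter through shControl alone. The ceruloplasmin gene CP and the protease inhibitor gene A2M were too low to be tested. CP was at 0.02, 0.11 and 0.10 in shCREPT, against 1.19, 0.77 and 0.75 in shControl, and A2M is listed at 0 in each shCREPT library and was at 0.77, 0.61 and 0.32 in shControl.

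**Figure D5:**
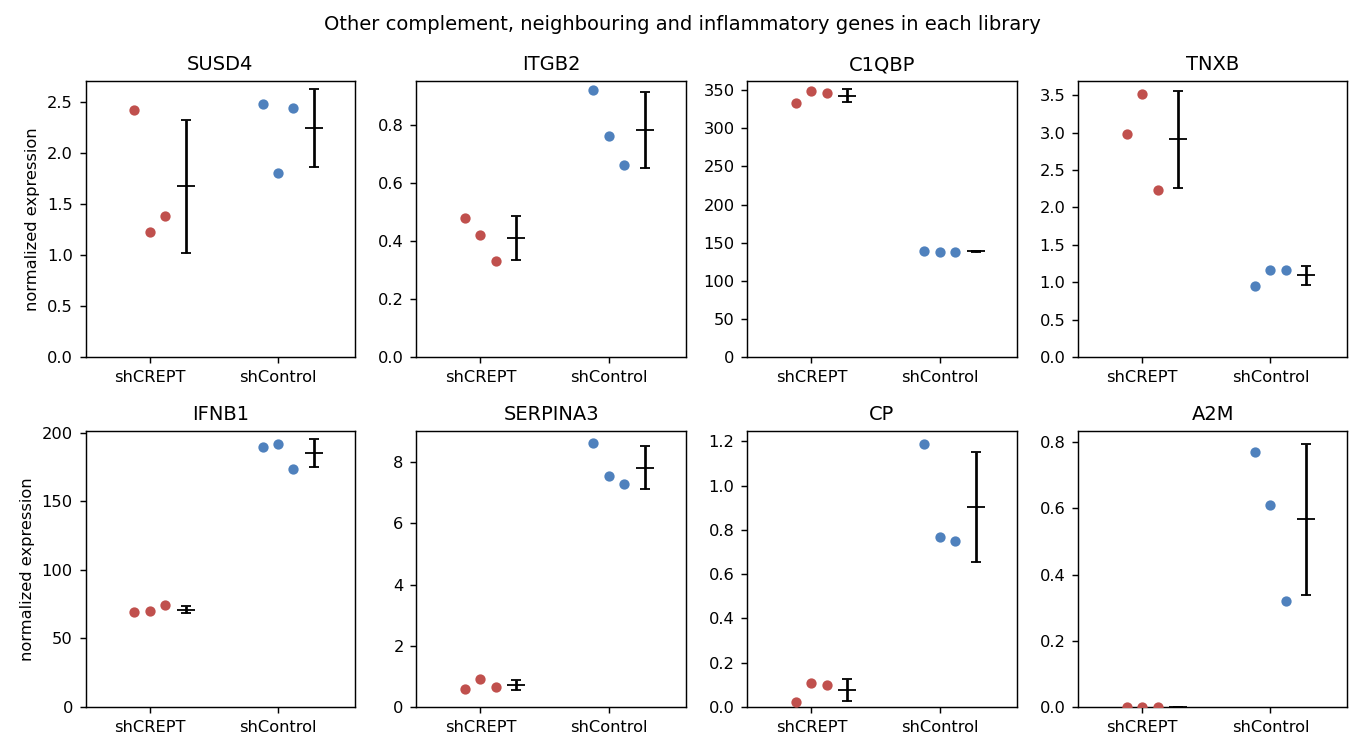
Normalized expression (vertical axes, linear from 0) of SUSD4, ITGB2, C1QBP, TNXB, IFNB1, SERPINA3, CP and A2M in the 3 shCREPT (red) and 3 shControl (blue) libraries, with mean and SD in black. C1QBP and TNXB are higher in shCREPT, SUSD4 overlaps between groups, and the others are lower in shCREPT.

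CFB, C4A and C4B lie within the class III region, where 4 of 41 listed genes have a row. The other of these 4 is TNXB, the gene of the matrix protein tenascin-X, whose span begins 5.7 kb beyond C4B and is transcribed towards it. TNXB was at 2.98, 3.52 and 2.23 in the shCREPT libraries, against 0.95, 1.16 and 1.17 in the shControl libraries. TNXB was 2.66-fold higher (log2 change 0.89 ± 0.14, SE; limma adjusted p = 0.00071), while C4B beside it was lower, and kept that direction under median-of-ratios rescaling (1.43). CFB shares 45.0% of its exonic bases with a same-strand gene that runs from within C2 through CFB and has no row. C4A and C4B each overlap an antisense gene with no row by 520 exonic bases, and the labels do not say whether strand was kept. Other genes with a row lie within 500 kb of the members, and those on chromosome 6 are not in the list of 41. That list does not hold every gene of the class III region, so some of these may also lie in it. In the authors' deposited table PRRT1, near C4A, C4B and CFB, is down with a log2 fold change of −1.02 and HCP5, near CFB, with −4.40. In the authors' deposited table FSTL3 and MISP near CFD are up with log2 fold changes of 1.10 and 1.46. The authors' deposited table marks COL25A1 near CFI down with −2.96 and GPR162 near C1R and C1RL down with −1.27. Genes listed without a name are up with 2.30 near C4A, C4B and CFB. Near C1R and C1RL such genes are up with 1.44 and down with −2.76.

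Promoter sequences were read from RefSeq windows on GRCh38.p14, from 250 bases before to 50 after the annotated start. They matched 5 of the 7 members in 6 windows, since C1R has a pair of starts, and C4A and C4B have no entry. The windows were searched on both strands for the gamma-activated site of STAT factors (TTCNNNGAA), the interferon-stimulated element (GAAANNGAAA), AP-1 (TGANTCA) and NF-kappaB sites, and no matches of different motifs overlapped. The gamma-activated site occurred in 3 of the 6 windows, in CFB, C1RL and C1R, and in 7.66% of all 35116 windows. The interferon-stimulated element occurred in CFB alone among the 6 and in 3.57% of all windows, AP-1 in C1RL alone and in 7.71%, and NF-kappaB in none and in 5.91%. In CFB the gamma-activated site began 92 bases before the start and the interferon-stimulated element 140 bases before it. In C1RL the sites began 57 bases (gamma-activated site) and 125 bases (AP-1) before the start. A match is a run of letters and not a site shown to be bound. The windows of CFB and C1RL, which hold the most matches, are given 5′ to 3′ on the strand of the gene, with the matches in capitals.
CFB, plus strand, chr6:31945845-31946144: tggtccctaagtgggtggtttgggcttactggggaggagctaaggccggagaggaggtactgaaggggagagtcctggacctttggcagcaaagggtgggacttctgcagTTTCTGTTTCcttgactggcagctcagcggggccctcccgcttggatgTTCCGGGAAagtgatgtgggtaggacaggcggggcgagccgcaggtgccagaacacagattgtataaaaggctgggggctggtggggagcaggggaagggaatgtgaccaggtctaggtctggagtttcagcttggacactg
C1RL, minus strand, chr12:7109165-7109464: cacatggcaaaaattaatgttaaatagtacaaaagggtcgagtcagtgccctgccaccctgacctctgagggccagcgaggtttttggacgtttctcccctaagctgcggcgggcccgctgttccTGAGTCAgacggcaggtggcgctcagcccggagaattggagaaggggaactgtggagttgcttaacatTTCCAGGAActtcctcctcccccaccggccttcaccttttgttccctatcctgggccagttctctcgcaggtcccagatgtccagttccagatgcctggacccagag

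The listed genes whose course over the 6 libraries was most like that of CFB were LOX, NPY1R and EFEMP1. Likeness was the root mean square difference of centred log2(value + 1) values, which was 0.035 for LOX, 0.035 for NPY1R and 0.066 for EFEMP1. LOX, which encodes a collagen-crosslinking oxidase, was 5.26-fold lower in shCREPT, NPY1R, a neuropeptide Y receptor, 5.36-fold lower, and EFEMP1, a matrix protein, 5.01-fold lower. With 2 groups that stand apart, this measure mainly finds genes with a fall of the same size.

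Macrophages and microglia are a known source of complement, but none of 15 genes listed for them or for monocytes has a row, and neither has any of 10 genes listed for T cells. That does not tell whether they are expressed. Of 11 astrocyte and glioblastoma markers GFAP, S100B and SLC1A3 have a row and fell. GFAP averaged 45.5 in shCREPT and 433.6 in shControl, and SLC1A3 averaged 36.5 and 78.4. S100B averaged 0.09 in shCREPT and 2.68 in shControl, and it met the filter through shControl alone. Of 6 endothelial markers CDH5 and KDR have a row and fell. CDH5 averaged 7.15 in shCREPT and 33.33 in shControl, and KDR averaged 5.27 and 11.12. Of 6 fibroblast markers COL1A2 fell and COL3A1 was too low to be tested. COL1A2 averaged 467.4 in shCREPT and 1093 in shControl. COL3A1 was at or near 0 in shCREPT. All 6 libraries are labelled as U87MG cells, a cell line, so these names do not stand for cell types mixed into a tissue. Over all tested genes 57.3% passed as lower, so the marker falls are not read as a result about the markers. In bulk RNA fewer cells that express a gene and less RNA per cell cannot be told apart. The part of these markers in the complement falls was not tested.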

How the data were processed

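RNA of 6 U87MG libraries was analysed from 1 deposited table. Its per-library values are a normalized signal per the file headers, written by the authors with 2 decimals; the sources used here do not name the normalization, no counts were used and depth is unknown, so no bound from depth is given. Per the file headers, the authors also deposited a ratio (fold change) with its log2, and a p-value before and after adjustment. HISAT2, HTSeq and GRCh38 are named in the submitters' processing notes, with no version or role.

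Values were taken as log2(value + 1). Since the added 1 shrinks the change of low genes, ratios of group means are given too. Genes that reached 1 in 3 or more libraries were kept (1184 of 1630), and shCREPT was compared with shControl in limma 3.58.1 (R 4.3.3), with Benjamini-Hochberg adjustment over all tested genes. The step was tested on simulated data in which most genes did not change. Of the genes tested here 97.9% passed, so that simulation does not cover the present setting. For the C4 sum, C4A and C4B were replaced by their sum and the fit repeated. Shares and ratios within a library had exact permutation tests, computed in Python 3.11.15 with numpy 2.4.6 and pandas 2.3.3; figures used matplotlib 3.10.9. Between any pair of libraries 96.0% or more of the values differed, and each library was used as a separate sample.

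Positions and exons came from GENCODE v29 (GRCh38), which matched 1549 of the 1630 identifiers, and promoters from RefSeq. The members, gene lists and tests were chosen with earlier results of these data known. The rule named all 7 members, each listed complement, inducer, acute phase and class III gene with a row, and the 3 genes nearest to the member with the highest mean value. The alternatives changed the pseudocount (0.1 or 5), the filter (none, or 10 in 3 libraries), the scaling (median of ratios or quantile) and the limma options (trend with robust), added the replicate number as a block, or left out each library in turn.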

Additional observations from a re-analysis of the deposited data

How the results depend on the processing

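All 7 members kept a lower level in shCREPT under every setting that tested them, and CFB, CFI, C4A and C1RL also kept their call. The count of 7 members past the threshold became 2 with a minimum of 10, which left CFB and CFI as the only members tested, and 4 under median-of-ratios rescaling; the cause was not tested. With each library left out in turn, 6 to 7 members were past the threshold; C1R, and likewise SERPINA3, was not tested without any 1 shControl library, since it then missed the filter. Ratios of means with a library left out were added after the data were seen; C4B ran from 2.09- to 4.12-fold lower and C1RL from 3.30- to 5.62-fold lower. Over those fits the log2 change ran from −1.62 to −1.34 for C4A plus C4B, the C4A share differed by −12.59 to 8.83 percentage points (turning sign without the second shControl library) and the log2 ratio of C1R over C1RL by −0.01 to 1.02 (turning sign without the third shCREPT library). C4A plus C4B kept its call under all alternatives, with −0.72 under median-of-ratios rescaling (limma adjusted p = 0.0092). SUSD4 turned sign under median-of-ratios rescaling, to 0.28. Deviations from the group means, correlated across genes between libraries of the same number, gave r of −0.109, 0.018 and −0.179, so the numbers were not taken to pair the libraries; the fit with the replicate block called 7 members and gave −1.50 for C4A plus C4B, −2.23 points for the C4A share and 0.56 for the C1R over C1RL ratio, and it changed no call. Unknown depth limits the low members C1R, C1RL, C4A, C4B and CFD, whose coefficients of variation were 12.7% to 64.5%, against 1.80% to 8.20% for CFB and CFI.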
